A study of Homo sapiens with 10 samples.

Results

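The clustered protocadherins are cell-surface cadherins encoded side by side in 3 gene clusters, alpha, beta and gamma, on chromosome 5. The members were taken as every gene of the deposited table whose symbol is PCDHA, PCDHB, PCDHGA, PCDHGB, PCDHGC or PCDHAC followed by a number. These were 54 of the 64940 genes in the table, with 16 in the alpha cluster, 16 in the beta cluster and 22 in the gamma cluster. They were compared between 2 control libraries and 2 libraries of cells that overexpressed DAZL, a germ cell RNA-binding protein (oeDAZL). All 4 libraries came from H9, a human embryonic stem cell (hESC) line. The oeDAZL libraries were labelled as human primordial germ cell-like cells (hPGCLCs), the in vitro counterpart of early germ cells. The control libraries were labelled wild type, spontaneously differentiated cells, whereas the design text of the series and the study call the control PGCLCs as well, so the labels and the study differ on the control. For its small RNA libraries the study gave control cells a lentivirus with GFP, and it does not say so for the RNA-seq libraries. According to the methods, hESCs were differentiated with BMP4 and BMP8a in serum and overexpression was by lentivirus added shortly after the start. The promoter driving DAZL in that vector was not given in the sources used here. The labels of these 4 libraries do not say whether the replicates were separate cultures, so the P-values measure only the spread between these libraries, which may be technical.

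In neurons each clustered protocadherin is read from its own promoter, and each cell switches on a small and largely random choice of them, which together with a few C-type members marks that cell as distinct from its neighbours. The proteins bind the same isoforms on the opposite cell, and branches of 1 neuron that meet then avoid each other. CTCF and cohesin loop a chosen promoter to a distant enhancer, while DNA methylation by DNMT3B and the chromatin protein SMCHD1 keep promoters silent. The alpha and gamma members each splice a large variable first exon to shared last exons that encode the common tail inside the cell, whereas a beta member is a gene of its own without that tail.

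The members lay on the plus strand of hg38 between 140786136 and 141512977 on chromosome 5. The alpha cluster spanned 140786136 to 141012347, the beta cluster 141051374 to 141249365 and the gamma cluster 141330514 to 141512977. By GENCODE release 44, 53 members were protein-coding and PCDHA14 was a transcribed pseudogene. In the alpha cluster 15 members shared exons of 59, 89 and 2721 bases, and in the gamma cluster all 22 shared exons of 59, 89 and 2029 bases. The bases that belonged to 1 member alone made up 35.6% to 72.5% of the exon bases of a gamma member. In the alpha cluster that share was at most 78.6%, and PCDHA14 had none since PCDHA10 covers it. No beta member shared exon bases with another member (100% its own), but genes that are not members were left out of this count. On the same strand ENSG00000279983 starts inside PCDHB14, ENSG00000279472 inside PCDHB8 and ENSG00000279068 inside PCDHB16. None of these was above 0.133 TPM in a library. A read in a shared exon can come from any of its members, so the TPM of an alpha or gamma member depends on how those reads were divided, and members of the same cluster are not independent measurements. The 2 short shared exons of each cluster are shown here as examples of the sequence that its members have in common. They read as follows in hg38, plus strand, with capitals where the alpha and gamma exons of the same length carry the same base at the same position.
alpha shared exon of 59 bases, chr5:140978949-140979007: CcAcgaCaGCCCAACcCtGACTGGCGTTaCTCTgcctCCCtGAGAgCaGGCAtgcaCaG
gamma shared exon of 59 bases, chr5:141494807-141494865: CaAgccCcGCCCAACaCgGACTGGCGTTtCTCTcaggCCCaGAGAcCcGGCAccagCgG
alpha shared exon of 89 bases, chr5:140982475-140982563: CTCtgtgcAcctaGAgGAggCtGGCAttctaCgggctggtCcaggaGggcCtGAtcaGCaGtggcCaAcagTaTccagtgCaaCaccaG
gamma shared exon of 89 bases, chr5:141505393-141505481: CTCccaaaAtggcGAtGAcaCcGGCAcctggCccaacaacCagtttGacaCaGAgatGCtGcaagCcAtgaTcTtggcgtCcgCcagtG
The 59-base exons were alike at 39 positions (66.1%) and the 89-base exons at 29 positions (32.6%).

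Promoter windows of 300 bases, from 250 before to 50 after the start, were found for 47 of the 54 members in RefSeq (GRCh38.p14). Their sequences are shown for some of the higher members and for those with a P of at most 0.05 and a window, since the choice of promoter sets which member is made. PCDHGC4 is among the higher members with a window and is not shown. The lines give 100 bases from 134 to 35 before the RefSeq start, plus strand, and capitals mark GGNGGCGCT in beta members, GATGTCGCT in alpha members, and CCGCTGT in gamma members. PCDHGB7 lacks CCGCTGT there, and its capitals mark CGCT, which stands at another place than the CCGCTGT of PCDHGB6. These letters were chosen after the sequences had been seen, and both strands were searched. All 3 longer motifs contain CGCT. PCDHA3, PCDHA13, PCDHA14, PCDHB6, PCDHB11, PCDHGA12 and PCDHGC5 had no entry.
PCDHGB7, chr5:141417543-141417642: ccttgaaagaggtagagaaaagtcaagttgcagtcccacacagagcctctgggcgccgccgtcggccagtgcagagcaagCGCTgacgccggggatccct
PCDHGB6, chr5:141407887-141407986: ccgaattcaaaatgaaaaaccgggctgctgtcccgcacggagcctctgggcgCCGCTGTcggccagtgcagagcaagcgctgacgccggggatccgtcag
PCDHGA10, chr5:141412853-141412952: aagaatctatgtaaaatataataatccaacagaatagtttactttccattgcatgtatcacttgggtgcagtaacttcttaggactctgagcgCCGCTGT
PCDHGC3, chr5:141475832-141475931: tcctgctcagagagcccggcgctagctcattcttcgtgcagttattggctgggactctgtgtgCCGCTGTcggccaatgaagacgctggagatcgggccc
PCDHB2, chr5:141094481-141094580: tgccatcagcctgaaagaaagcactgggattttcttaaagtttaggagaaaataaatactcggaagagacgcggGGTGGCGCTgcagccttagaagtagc
PCDHB10, chr5:141192219-141192318: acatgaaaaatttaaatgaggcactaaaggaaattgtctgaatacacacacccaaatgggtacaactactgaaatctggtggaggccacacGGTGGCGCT
PCDHA12, chr5:140875174-140875273: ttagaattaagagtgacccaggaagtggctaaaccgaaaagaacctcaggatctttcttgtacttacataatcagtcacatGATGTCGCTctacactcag
PCDHA4, chr5:140806934-140807033: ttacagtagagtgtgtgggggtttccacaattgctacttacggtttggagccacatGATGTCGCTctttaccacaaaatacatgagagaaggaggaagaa
GGNGGCGCT was in 13 of the 14 beta windows, all but that of PCDHB1, in 0 of 13 alpha and 0 of 20 gamma windows, and in 4.54% of the 27305 genes with a promoter window. GATGTCGCT was in 9 of the 13 alpha windows and in no beta or gamma window, against 0.128% of all genes. CCGCTGT was in 11 of the 20 gamma windows and in no alpha or beta window, against 4.72% of all. The short core CGCT was in 12 of 13 alpha windows, PCDHA9 being the exception, in all 14 beta and all 20 gamma windows, and in 71.9% of all genes. In alpha members GATGTCGCT began 43 to 86 bases before the start, and in 12 beta members GGNGGCGCT lay before the start and began 16 to 84 bases from it. Of the 21 pairs of gamma B members, PCDHGB4 and PCDHGB5 shared the longest run of identical bases before the start (54), and PCDHGB6 and PCDHGB7 the next (38), with a median of 11 over the pairs. A match describes the letters of the window and says nothing of binding in these cells.

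DAZL, the overexpressed gene, reached 102 and 101 TPM with oeDAZL, against 0 and 0.0333 TPM in control, as labelled. Most germ cell markers were low in both groups. NANOS3, a germ cell RNA regulator, was at 1.39 and 1.66 TPM in control and 1.07 and 0.732 TPM in oeDAZL, and DDX4, a marker of later germ cells, was at 0 in all 4 libraries. TFAP2C, an early germ cell and surface ectoderm factor, was at 53.9 and 49.1 TPM in control and 44.3 and 50.4 TPM in oeDAZL. Of all 16687 genes with a mean of at least 1 TPM, 65.3% had a lower mean log2 value with oeDAZL. Their median log2 fold change (oeDAZL minus control, on log2(TPM + 1), the scale of every fold change here) was -0.08. At P of at most 0.05 in limma, 838 of these genes were higher and 2530 lower. With median-of-ratios scaling the split was 1873 higher and 1369 lower, and with quantile normalization 1402 higher and 1514 lower. Each member below is therefore read against these shares. TPM keeps no read depth, so no counting interval can be given and a member shown as 0 is merely listed at 0.

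A few members of each cluster held most of its signal. Of the 54 members, 52 were above 0 in all 4 libraries, and 25 had a mean of at least 1 TPM and were tested. The summed gamma TPM was the highest of the 3 clusters, at 171 and 154 in control and 127 and 133 in oeDAZL. The alpha sum was 53.6 and 46.8 TPM in control and 42.6 and 43.5 TPM in oeDAZL. The beta sum was 37.0 and 31.3 TPM in control and 23.5 and 25.3 TPM in oeDAZL. In each cluster both oeDAZL libraries lay below both controls. The ratio of the group means was 0.857 for alpha, 0.714 for beta and 0.8 for gamma, or -0.22, -0.49 and -0.32 on the log2 scale, with control means of 50.2 ± 4.77, 34.2 ± 4.03 and 162 ± 12.4 TPM (SD, n = 2) and oeDAZL means of 43.0 ± 0.616, 24.4 ± 1.31 and 130 ± 4.63 TPM. The sums are given as a description and were not tested. An exact permutation test of 2 against 2 libraries cannot give a two-sided p under 0.333. With median-of-ratios scaling the log2 ratio of alpha was -0.12 and that of gamma -0.22, and with quantile normalization that of alpha was -0.08, so the direction stayed and the size of the alpha difference did not.

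**Figure D1:**
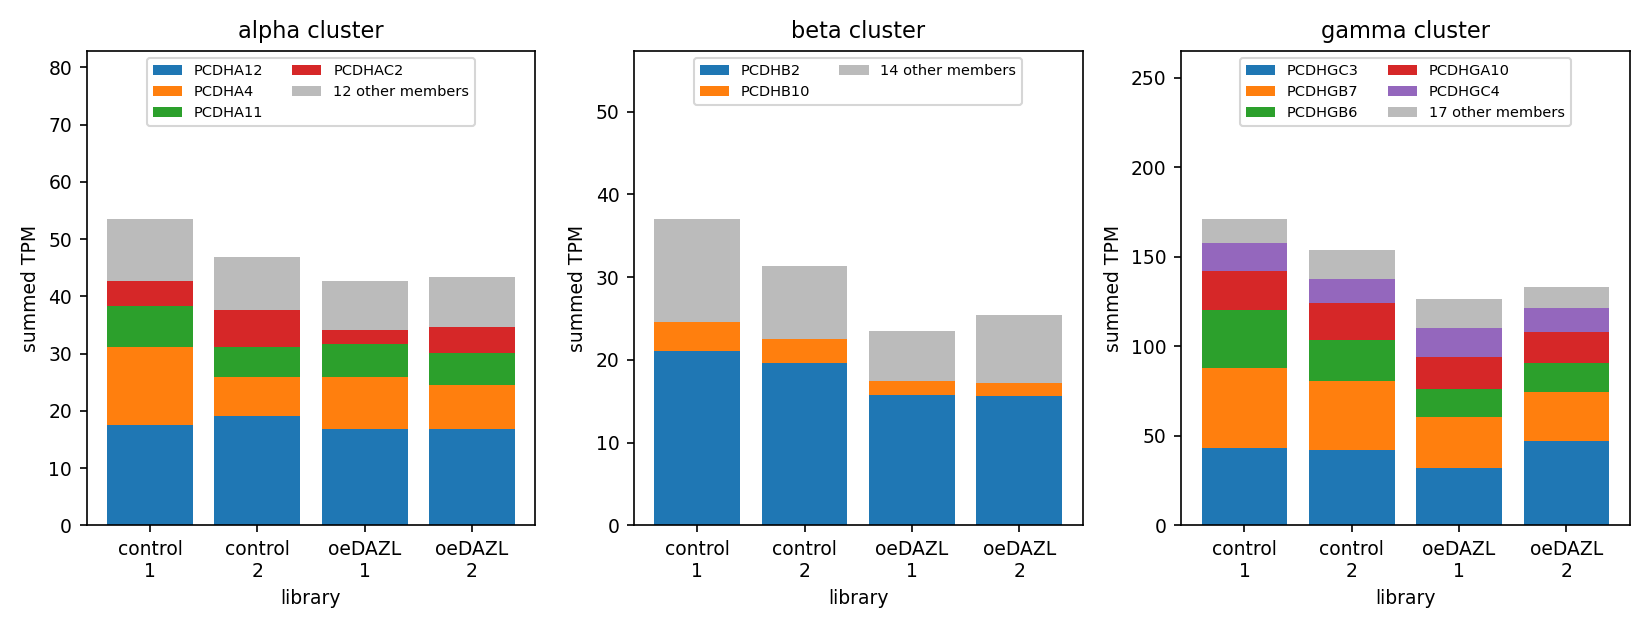
Summed TPM of each cluster in each of the 4 libraries (vertical axis, TPM, a separate scale per panel, bars from 0), stacked by the highest members of the cluster with the others in grey. PCDHB2 alone held 57.1% to 66.7% of the beta sum, and in each panel both oeDAZL bars are lower than both control bars.

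PCDHA12 and PCDHA4 together made up 55.2% to 60.7% of the alpha sum, and with PCDHA11 and PCDHAC2 79.9% to 80.4%. PCDHB2 alone made up 57.1% to 66.7% of the beta sum. In the gamma cluster PCDHGC3, PCDHGB7, PCDHGB6, PCDHGA10 and PCDHGC4 together made up 87.2% to 92.4%. PCDHA12 and PCDHB2 led their clusters in all 4 libraries, whereas in the gamma cluster PCDHGB7 led in control replicate 1 and PCDHGC3 in the other libraries. Within the gamma cluster the sum of the 7 B members was 83.0 and 70.0 TPM in control and 49.7 and 48.3 TPM in oeDAZL, a ratio of 0.64. Most of that sum came from PCDHGB7 and PCDHGB6, with means of 41.6 and 27.8 TPM in control, where the B sum had a mean of 76.5 TPM. In oeDAZL their means were 28.0 and 15.5 TPM, where the B sum had 49.0 TPM. Of the 7 B members 6 had a lower mean in oeDAZL and 1, PCDHGB1, a higher one. The 12 A members summed to 26.9 and 25.5 TPM in control and 23.8 and 20.7 TPM in oeDAZL, a ratio of 0.847. The 3 C-type members summed to 61.1 and 58.0 TPM in control and 53.1 and 64.2 TPM in oeDAZL, so their groups overlapped, with a ratio of 0.985. Whether the B members differ from the C-type members in their response was not tested.

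**Figure D2:**
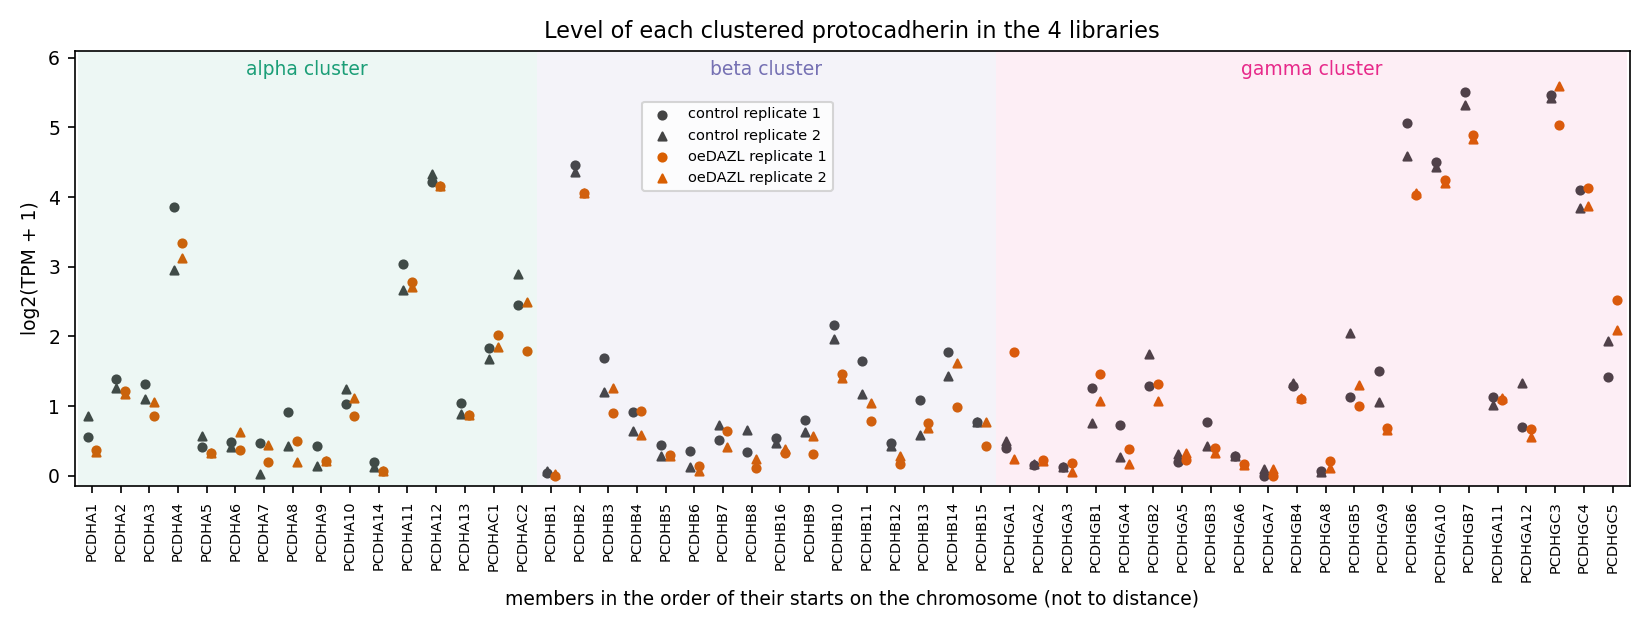
Level of all 54 members, as log2(TPM + 1) on the vertical axis, in the order of their starts along the chromosome, with grey for control, orange for oeDAZL, and circles and triangles for replicates 1 and 2. High members stand among low neighbours, for example PCDHA4, PCDHA12 and PCDHB2, and the highest gamma levels stand near the end of that cluster, from PCDHGB6 on.

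At P of at most 0.05, 5 of the 25 tested members were lower in oeDAZL (20.0%, against 15.2% of all tested genes) and 1 was higher (4.0%, against 5.02%). Without oeDAZL replicate 1 fewer members passed that P in limma, and fewer of all tested genes did as well. No member reached a 2-fold change at that P in limma, in either direction, where 0.563% of all tested genes were called lower and 0.126% higher, and none had an adjusted p under 0.05. Both oeDAZL libraries lay below both controls in 11 tested members (44.0%, against 38.4% of all tested genes) and above both in 2 (8.0%, against 16.0%). These shares depend on the scaling. With median-of-ratios scaling 4 members were lower (16.0%, against 8.2% of all tested genes), and with quantile normalization also 4 (16.0%, against 9.07%). At each of these scalings 1 member was higher (4.0%), against 11.2% and 8.4% of all tested genes. Of the 25, 20 had a negative fold change (80.0%, against 65.3% of all tested genes). With median-of-ratios scaling 20 were negative (80.0%, against 47.7%), and with quantile normalization 17 (68.0%, against 48.7%), where PCDHA2, PCDHA10 and PCDHA11 turned to 0.04, 0.01 and 0.02. The median over the 25 was -0.24, against -0.08 over all tested genes. PCDHA3, PCDHA10, PCDHB11 and PCDHGA9 passed the filter with a mean of at least 1 TPM in control and below it in oeDAZL, and no tested member had the reverse.

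**Figure D3:**
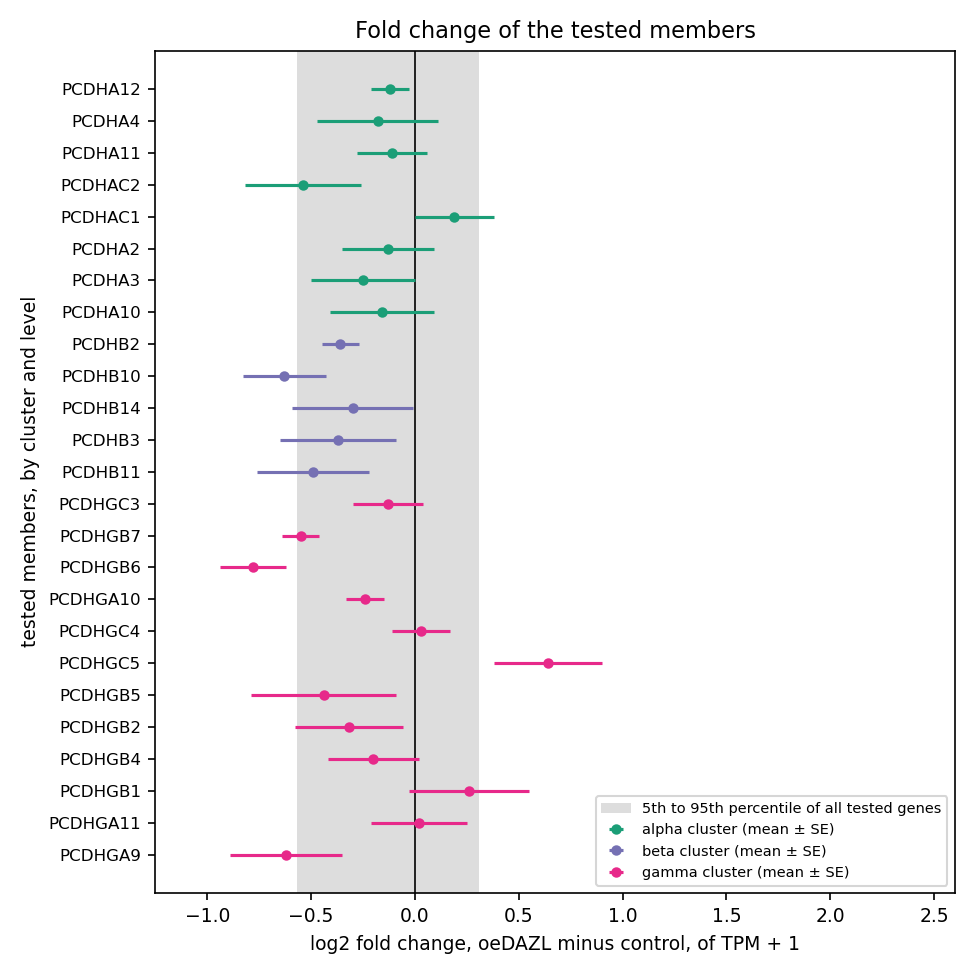
Log2 fold change (oeDAZL minus control, of TPM + 1) of the 25 tested members, points with SE from limma (n = 2 per group), coloured by cluster. The grey band spans the 5th to the 95th percentile of all tested genes, -0.57 to 0.31. PCDHGB6, PCDHB10 and PCDHGA9 lie below it and PCDHGC5 above it.

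PCDHGB7 and PCDHGB6, both gamma B members, had the smallest P-values of all tested members. PCDHGB7 (ENSG00000254122, 141417645 to 141512975) was at 44.3 and 38.9 TPM in control and 28.7 and 27.4 TPM in oeDAZL, a log2 fold change of -0.55 ± 0.09 (SE, limma adjusted p = 0.0896). PCDHGB6 (ENSG00000253305, 141408021 to 141512975) was at 32.5 and 23.0 TPM in control and 15.3 and 15.7 TPM in oeDAZL, with -0.78 ± 0.16 (limma adjusted p = 0.102). Their groups did not overlap, and both kept a P of at most 0.05 in all 14 alternatives that were run, with fold changes of -0.45 and -0.69 under median-of-ratios scaling. Without control replicate 2, PCDHGB6 alone reached a 2-fold change, at -1.02. These 2 members flank PCDHGA10 on the chromosome. PCDHGA10 (ENSG00000253846, 141412987 to 141512975) was at 21.7 and 20.5 TPM in control and 18.0 and 17.4 TPM in oeDAZL, with -0.24 ± 0.09 (limma adjusted p = 0.213). Its P was above 0.05 in 6 of 14 alternatives. These were median-of-ratios scaling and quantile normalization, where its fold change was -0.14 and -0.15, the replicate block, and the fits without control replicate 1 (-0.20), oeDAZL replicate 1 (-0.26) or oeDAZL replicate 2 (-0.22).

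The 4 other tested B members and the 2 other tested A members had P-values above 0.05. PCDHGB1 was at 1.39 and 0.682 TPM in control and 1.75 and 1.11 TPM in oeDAZL. PCDHGB2 was at 1.44 and 2.34 TPM in control and 1.48 and 1.11 TPM in oeDAZL. PCDHGB5 was at 1.19 and 3.15 TPM in control and 1.01 and 1.46 TPM in oeDAZL. All 3 overlapped between the groups, and with 1 library left out PCDHGB1 ranged from 0.01 to 0.52 and PCDHGB2 from -0.55 to -0.09. PCDHGB4 was at 1.43 and 1.51 TPM in control and 1.14 and 1.17 TPM in oeDAZL, without overlap. PCDHGA9 was at 1.84 and 1.09 TPM in control and 0.604 and 0.579 TPM in oeDAZL, a log2 fold change of -0.62 ± 0.27 (limma adjusted p = 0.27). Its value was -0.40 without control replicate 1, -0.84 without control replicate 2 and -1.14 with a pseudocount of 0.1, and its P was at most 0.05 in 3 alternatives, those with a mean of at least 0.1 TPM, without the limma trend and without control replicate 2. PCDHGA11 was at 1.19 and 1.03 TPM in control and 1.12 and 1.17 TPM in oeDAZL, and its groups overlapped.

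The C-type members, which most neurons that use a cluster express and which do not follow the random choice, did not move together. PCDHGC5 (ENSG00000240764, 141489081 to 141512975) was at 1.66 and 2.82 TPM in control and 4.72 and 3.28 TPM in oeDAZL, a log2 fold change of 0.64 ± 0.26 (limma adjusted p = 0.242). It was the only tested member higher at P of at most 0.05, and its P was above 0.05 in 6 of the 13 alternatives in which it was tested. Without control replicate 1 its fold change was 0.37, and without oeDAZL replicate 1 it was 0.43. PCDHGC3, an isoform known to shape dendrite branching through AXIN1, was at 43.3 and 41.8 TPM in control and 31.9 and 47.3 TPM in oeDAZL. The oeDAZL replicates of PCDHGC3 lay on either side of the controls, and its log2 fold change was 0.15 without oeDAZL replicate 1 and -0.40 without oeDAZL replicate 2. PCDHGC4, needed for neuron survival, was at 16.1 and 13.4 TPM in control and 16.5 and 13.6 TPM in oeDAZL, values that overlapped almost entirely. PCDHAC1 was at 2.55 and 2.20 TPM in control and 3.07 and 2.61 TPM in oeDAZL, higher without overlap but with a log2 fold change of 0.19 ± 0.19 that was 0.10 without oeDAZL replicate 1, 0.11 without control replicate 2 and 0.35 with quantile normalization. PCDHAC2, needed for the even spacing of serotonergic axons, was at 4.49 and 6.47 TPM in control and 2.45 and 4.65 TPM in oeDAZL, with -0.54 ± 0.28 (limma adjusted p = 0.341), which was -0.31 without control replicate 2, -0.18 without oeDAZL replicate 1 and -0.89 without oeDAZL replicate 2. Its P was at most 0.05 in that last fit and with the replicate block.

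All 16 beta members had a lower mean in oeDAZL. Of the genes above 0 in any library, 62.6% had a negative log2 fold change. These are the genes without a shared tail, and 8 of the 16 did not overlap between the groups, where 28.3% of the genes above 0 in any library were lower without overlap. That set takes in many genes with a mean under 0.1 TPM. Of the 25590 genes with a mean of at least 0.1 TPM, 8674 were lower without overlap. Of the 5 tested beta members 3 were lower without overlap, against 38.4% of all tested genes. With median-of-ratios scaling that share of all tested genes was 24.6%, and the share of the beta members was not computed. PCDHB2 (ENSG00000112852, 141094606 to 141098703) was at 21.1 and 19.6 TPM in control and 15.7 and 15.6 TPM in oeDAZL, a log2 fold change of -0.36 ± 0.09 (limma adjusted p = 0.131). Its replicates were close and its P stayed at or under 0.05 in all 14 alternatives. PCDHB10 (ENSG00000120324, 141192353 to 141195647) was at 3.49 and 2.88 TPM in control and 1.75 and 1.64 TPM in oeDAZL, with -0.63 ± 0.20 (limma adjusted p = 0.171). It was lower without overlap, and its P was above 0.05 in 3 of 13 alternatives, those without control replicate 1 (-0.53), oeDAZL replicate 1 (-0.66) or oeDAZL replicate 2 (-0.60). PCDHB11 was at 2.12 and 1.25 TPM in control and 0.72 and 1.06 TPM in oeDAZL, also without overlap, with -0.49 ± 0.27 that was -0.26 without control replicate 1. PCDHB3, at 2.23 and 1.30 TPM in control and 0.866 and 1.40 TPM in oeDAZL, and PCDHB14, at 2.41 and 1.69 TPM in control and 0.975 and 2.06 TPM in oeDAZL, overlapped. Antisense genes lie across 19 members, PCDHB2 and PCDHB10 among them. The strand setting of the counting was not given in the sources used here, so reads of a member and of its antisense partner cannot be told apart, and no antisense gene was above 1.33 TPM. The antisense gene across PCDHB10, ENSG00000279375, was itself at 0.257 and 1.33 TPM in control and 0 and 0.302 TPM in oeDAZL.

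No tested alpha member had a P of at most 0.05. PCDHA12 (ENSG00000251664), the highest of the cluster, was at 17.6 and 19.1 TPM in control and 16.8 in both oeDAZL libraries, a log2 fold change of -0.12 ± 0.09. Its fold change was -0.03 under both median-of-ratios scaling and quantile normalization and -0.07 without control replicate 2. PCDHA4 was at 13.5 and 6.73 TPM in control and 9.08 and 7.74 TPM in oeDAZL, with a log2 fold change of -0.18 ± 0.29 that turned to 0.28 without control replicate 1 and to -0.63 without control replicate 2. PCDHA11 was at 7.18 and 5.36 TPM in control and 5.86 and 5.52 TPM in oeDAZL. Both overlapped between the groups. PCDHA2 was at 1.61 and 1.40 TPM in control and 1.32 and 1.26 TPM in oeDAZL. PCDHA3 was at 1.49 and 1.15 TPM in control and 0.818 and 1.09 TPM in oeDAZL. PCDHA10 was at 1.05 and 1.38 TPM in control and 0.815 and 1.17 TPM in oeDAZL. PCDHA2 and PCDHA3 were lower without overlap and PCDHA10 overlapped.

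The other 29 members were below a mean of 1 TPM and were not tested. They ranged up to 1.07 TPM in a library for 8 alpha members, 1.12 TPM for 11 beta members and 2.43 TPM for 10 gamma members, with medians of their means of 0.362, 0.347 and 0.183 TPM. The highest by mean were PCDHA13 in the alpha cluster, PCDHB13 in the beta cluster and PCDHGA1 in the gamma cluster. PCDHGA1 was at 0.323 and 0.416 TPM in control and 2.43 and 0.178 TPM in oeDAZL, so its high mean rests on oeDAZL replicate 1. PCDHB13 was at 1.12 and 0.501 TPM in control and 0.685 and 0.605 TPM in oeDAZL. Over all 54 members, 43 had a lower and 11 a higher mean in oeDAZL, beside 62.6% lower among the 33251 genes above 0 in any library. In 23 members both oeDAZL libraries were below both controls (42.6%, against 28.3% of those 33251 genes), in 4 above (7.41%, against 12.2%), and in 27 the groups overlapped. Those 33251 genes take in many with a mean under 0.1 TPM, so their shares are not a like background. Of the 25590 genes with a mean of at least 0.1 TPM, 8674 were lower without overlap and 3619 higher.

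Among the untested alpha members 4 were lower without overlap. PCDHA1 was at 0.476 and 0.806 TPM in control and 0.289 and 0.263 TPM in oeDAZL. PCDHA5 was at 0.33 and 0.484 TPM in control and 0.257 and 0.259 TPM in oeDAZL, and PCDHA13 at 1.07 and 0.854 TPM in control and 0.833 and 0.827 TPM in oeDAZL. The pseudogene PCDHA14 was at 0.145 and 0.0955 TPM in control and 0.0476 and 0.0501 TPM in oeDAZL. PCDHA13 was the highest of the 4 in every library. In the beta cluster PCDHB8, PCDHB9, PCDHB12, PCDHB16 and PCDHB1 were lower without overlap. PCDHB8 was at 0.267 and 0.58 TPM in control and 0.0843 and 0.185 TPM in oeDAZL, and PCDHB9 at 0.746 and 0.552 TPM in control and 0.238 and 0.481 TPM in oeDAZL. PCDHB12 was at 0.378 and 0.338 TPM in control and 0.125 and 0.211 TPM in oeDAZL, and PCDHB16 at 0.449 and 0.39 TPM in control and 0.253 and 0.298 TPM in oeDAZL. PCDHB1 had the lowest mean of all 54 members, at 0.0306 and 0.0483 TPM in control and 0 and 0.0136 TPM in oeDAZL.

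In the gamma cluster PCDHGB3, PCDHGA6 and PCDHGA12 were lower without overlap and PCDHGA2 and PCDHGA8 higher. PCDHGB3 was at 0.709 and 0.348 TPM in control and 0.322 and 0.258 TPM in oeDAZL. PCDHGA6 was at 0.218 and 0.211 TPM in control and 0.126 and 0.115 TPM in oeDAZL, and PCDHGA12 at 0.62 and 1.51 TPM in control and 0.59 and 0.467 TPM in oeDAZL. PCDHGA2 was at 0.111 and 0.122 TPM in control and 0.172 and 0.163 TPM in oeDAZL, and PCDHGA8 at 0.0465 and 0.0327 TPM in control and 0.154 and 0.0833 TPM in oeDAZL. All 5 had a mean below 1 TPM.

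The genes known to loop or silence the protocadherin clusters include CTCF, cohesin, DNA methyltransferases and zinc finger repressors. Of 27 such genes, all tested, 7 were lower (25.9%) and 1 was higher (3.7%) at P of at most 0.05 (median -0.05). Of all tested genes 15.2% were lower and 5.02% higher, the shares that the counts of the following lists also stand beside. With median-of-ratios scaling 1 of the 27 was lower and 2 were higher. Counts at that scaling, also of the following lists, stand beside 8.2% lower and 11.2% higher of all tested genes. Fits with 1 library left out have other shares over all genes, so their counts, here and for the members, are not read against these. With 1 library left out, 1 (without oeDAZL replicate 1) to 6 were lower. ZNF274, a zinc finger repressor, was at 21.4 and 22.5 TPM in control and 15.7 and 16.7 TPM in oeDAZL, with -0.42 ± 0.09 (limma adjusted p = 0.106). DNMT3B was at 49.1 and 51.6 TPM in control and 61.1 and 58.2 TPM in oeDAZL, with 0.24 ± 0.07 (limma adjusted p = 0.154). CBX5, a heterochromatin protein, was at 80.1 and 71.6 TPM in control and 63.8 and 63.5 TPM in oeDAZL. In all 3 the groups did not overlap. CTCF was at 58.4 and 56.0 TPM in control and 55.8 in both oeDAZL libraries, and SMCHD1 at 35.5 and 37.2 TPM in control and 39.6 and 35 TPM in oeDAZL. The other DNA methyltransferases of the list went the other way from DNMT3B. DNMT3A was at 46.0 and 45.4 TPM in control and 33.2 and 41.9 TPM in oeDAZL, with -0.29 ± 0.11 (limma adjusted p = 0.239). DNMT1 was at 122 TPM in both controls and 113 and 112 TPM in oeDAZL, with -0.11 ± 0.05.

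Of 21 genes that bind, signal from or cleave protocadherins, 20 were tested and 5 were lower (25%) and 2 higher (10.0%, median -0.03), against 1 lower and 5 higher with median-of-ratios scaling. With 1 library left out, 1 (without either oeDAZL library) to 5 were lower and 1 to 4 (without control replicate 2) higher. PTK2, the focal adhesion kinase that gamma protocadherins inhibit, was at 119 and 117 TPM in control and 142 and 139 TPM in oeDAZL, with 0.25 ± 0.05 (limma adjusted p = 0.105). WASF1, a subunit of the WAVE complex that regulates actin, was at 122 and 82.1 TPM in control and 53.2 and 60.6 TPM in oeDAZL, with -0.81 ± 0.18 (limma adjusted p = 0.111). FYN, a kinase, was at 55.8 and 66.4 TPM in control and 83.3 and 72.1 TPM in oeDAZL. In all 3 the groups did not overlap.

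Cadherins outside the clusters were counted in the same way. Of 23 non-clustered protocadherins and large cadherins, 16 were tested, 4 were lower (25%) and 1 higher (6.25%, median -0.14), or 7 lower without control replicate 2. PCDH7 was at 19.0 and 16.9 TPM in control and 9.23 and 9.79 TPM in oeDAZL, with -0.85 ± 0.11 (limma adjusted p = 0.0885). CELSR1, a planar polarity cadherin, was at 39.6 and 35 TPM in control and 27.4 and 27.0 TPM in oeDAZL, and DCHS1, the ligand of FAT4, at 8.04 and 8.56 TPM in control and 5.58 and 5.48 TPM in oeDAZL. Of 24 classical cadherins and catenins, 16 were tested and 6 were lower (37.5%) and 0 higher (median -0.11), with 3 lower under median-of-ratios scaling and also without control replicate 1 or oeDAZL replicate 1. CTNND2, a neuronal catenin, was at 12.8 and 10.0 TPM in control and 5.34 and 5.15 TPM in oeDAZL, with -0.98 ± 0.15 (limma adjusted p = 0.0896). CDH24 was at 55.7 and 48.6 TPM in control and 37.3 and 39.1 TPM in oeDAZL, and CDH6 at 8.16 and 7.45 TPM in control and 4.83 and 4.22 TPM in oeDAZL. No gene of these lists reached both a 2-fold change and a P of at most 0.05 in limma, and none had an adjusted p under 0.05.

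Genes around the clusters share their stretch of chromosome. Of 21 other protein-coding genes between the members or within 300000 bases of them, 16 were tested and 4 were lower (25%) and 1 higher (6.25%, median -0.08, the same as over all genes), against 1 lower and 2 higher with median-of-ratios scaling and 1 lower without oeDAZL replicate 2. The lowest P-values were those of APBB3, at 41.5 and 37.2 TPM in control and 29.9 and 31.4 TPM in oeDAZL, FCHSD1, at 36.1 and 30.7 TPM in control and 27.6 and 25.4 TPM in oeDAZL, and ZMAT2, at 95.4 and 99.2 TPM in control and 86.5 and 86.1 TPM in oeDAZL. Their log2 fold changes were -0.35 ± 0.08, -0.32 ± 0.10 and -0.17 ± 0.06.

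Since clustered protocadherins are best known from neurons, neural markers are given beside them. Of 15 neural markers 7 were tested, 3 were lower and 1 was higher, where 15.2% and 5.02% of all tested genes were. STMN2, a growth cone protein, was at 24.6 and 20.6 TPM in control and 13.1 and 14.0 TPM in oeDAZL. ZIC1 was at 3.71 and 3.79 TPM in control and 1.60 and 1.39 TPM in oeDAZL, and PAX6, a neural progenitor factor, at 3.83 and 1.14 TPM in control and 0.0967 and 0.558 TPM in oeDAZL. NES, an intermediate filament of progenitors and of other cells, was at 253 and 347 TPM in control and 440 and 409 TPM in oeDAZL. The summed level of the list, mostly NES and TUBB3, was 486 to 621 TPM in control and 668 to 724 TPM in oeDAZL, while ELAVL4 and NEUROG2 were at 0 in both control libraries. The log2 fold change was negative in PAX6 (-1.3), ZIC1 (-0.93), STMN2 (-0.69) and MAP2 (-0.41). It was positive in NES (0.52), SOX3 (0.23) and TUBB3 (0.22), so the tested neural markers did not move together. Their part in the protocadherin values was not tested. In bulk RNA, fewer cells of a type and less RNA per cell cannot be told apart.

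Markers of other cell types stand beside the same shares of all tested genes, 15.2% lower and 5.02% higher. Of 10 mesoderm and mesenchyme markers 9 were tested, and 4 were lower and 1 higher. COL3A1, among the lower, was at 583 and 479 TPM in control and 224 and 220 TPM in oeDAZL. HAND1, the higher, was at 958 and 1040 TPM in control and 1250 TPM in both oeDAZL libraries. The list summed to 3540 to 3710 TPM in control and 3490 to 3540 TPM in oeDAZL. Of 7 amnion and trophoblast markers 6 were tested and 2 were lower, with CGA at 15.5 and 10.4 TPM in control and 4.34 and 5.82 TPM in oeDAZL and sums of 2160 to 2350 TPM and 2200 to 2240 TPM. Of 6 endoderm markers all were tested and 1 was lower, AFP, at 36.3 and 13.1 TPM in control and 8.91 and 11.6 TPM in oeDAZL, with sums of 56.6 to 104 TPM and 52.4 to 63.3 TPM. Endothelial markers had 1 lower of 3 tested out of 4, with PECAM1 at 0 and sums of 19.9 to 21.4 TPM in control and 16.0 to 17.5 TPM in oeDAZL. Neural crest markers had none past P of 0.05 among 3 tested of 6 in limma, with sums of 156 to 183 TPM and 161 to 169 TPM. Pluripotent markers had 1 higher of 4 tested out of 6, POU5F1, at 13.6 and 10.6 TPM in control and 22.4 and 20.4 TPM in oeDAZL, with sums of 487 to 541 TPM and 466 to 483 TPM. Of 9 primordial germ cell markers 7 were tested and only DAZL was past P of 0.05. The part of these cell types in the protocadherin values was not tested.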

How the data were processed

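The authors deposited TPM per gene for 2 control and 2 oeDAZL libraries, unpooled. Per the methods, reads were checked with FastQC, trimmed, mapped to hg38 with HISAT2, restricted to unique alignments and quantified with StringTie. The submitters' processing notes name HISAT2 2.1.0, StringTie 2.1.4 and Trim Galore 0.6.4, for which the methods give another version. The annotation release was not given in the sources used here. StringTie divides reads of shared exons among overlapping transcripts, which bears on alpha and gamma members.

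The table holds 65003 entries. Of these, 45 chromosome Y copies of pseudoautosomal genes and 18 repeated entries were left out. Genes with a mean of at least 1 TPM (16687) were fitted on log2(TPM + 1) with limma 3.58.1 in R 4.3.3 (lmFit, eBayes with trend, two-sided, Benjamini-Hochberg adjustment over all tested genes). The thresholds of a 2-fold change and P of at most 0.05 were those of the study. The script was tested on simulated data. Members were located in GENCODE release 44 by gene identifier (54 of 54). Named genes were every tested member, untested members highest in their cluster or not overlapping between groups, and the 3 smallest P-values and 2-fold calls of each list. For markers of cell types other than neural, the 2-fold calls were named but not all of the 3 smallest P-values. Other neural markers at 0, and values of CTCF, SMCHD1, DNMT3A, DNMT1 and some markers, were picked after they were seen. Members, lists and rules were chosen with earlier results of these data known. Read depth is unknown, and n = 2 limits precision. The small RNA libraries were not analysed here.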

Additional observations from a re-analysis of the deposited data

How the results depend on the processing

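The negative direction of the 3 cluster sums held under every alternative run on them, with moved sizes for alpha (log2 ratio -0.12) and gamma (-0.22) under median-of-ratios scaling and for alpha under quantile normalization (-0.08). Leaving out 1 library at a time, the log2 ratios ran from -0.32 to -0.12 for alpha, -0.6 to -0.36 for beta and -0.4 to -0.24 for gamma. The -0.12 for alpha was without control replicate 1 and was a moved size too. The lower members at P of at most 0.05 numbered 3 to 7, and the higher 0 to 1. Members called lower at 2-fold numbered 0 to 1, the 1 being PCDHGB6 without control replicate 2, and none was called higher. The 1 higher member, PCDHGC5, was lost (0) without a filter, with a mean of at least 0.1 TPM, without the limma trend and with the replicate block. With a mean of at least 5 TPM it was not tested (0). It was also lost without control replicate 1 or oeDAZL replicate 1, with a fold change as low as 0.37. The cause of these changes was not tested.

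Fold changes turned sign for PCDHA2 (0.044), PCDHA10 (0.00985) and PCDHA11 (0.024) under quantile normalization. With 1 library left out, the ranges that crossed 0 were -0.63 to 0.28 for PCDHA4, -0.29 to 0.072 for PCDHA11, -0.62 to 0.015 for PCDHB14, -0.90 to 0.022 for PCDHGB5, -0.03 to 0.075 for PCDHGA11, -0.40 to 0.149 for PCDHGC3 and -0.10 to 0.15 for PCDHGC4. In these fits the lone library of a group is assumed to vary like the other group. None of these members had a P of at most 0.05 in the unmodified fit.

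Replicates of the same number share only that number, and the differences between replicates correlated at -0.104 across genes. With the replicate block 5 members were lower and 0 higher, with PCDHAC2 in place of PCDHGA10. Over all tested genes that block gave 2102 lower and 670 higher. The crossed pairing, chosen after seeing the data, gave 5 lower and 1 higher. Over all tested genes that pairing gave 2957 lower and 1060 higher. Both blocks leave 1 residual degree of freedom. Median-of-ratios scaling and quantile normalization each gave 4 lower members and 1 higher. PCDHGB6 and PCDHGB7 had limma adjusted p-values of 0.013 and 0.0153 with the crossed pairing, against 0.102 and 0.0896 in the fit as reported. Adjusted calls rose over the whole table with that pairing. At an adjusted p under 0.05 in limma, 291 of all tested genes were higher and 798 lower, against 4 and 6 as reported. Fold changes of low members are understated by the pseudocount, and read depth cannot be judged from TPM.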
